A study of Bos taurus with 20 samples.

Results

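The chemokines and chemokine receptors of bovine endometrium were followed in 10 cows on 1-colour oligonucleotide arrays. Members were taken by name. They were all noncontrol probes whose gene name on the array was CCL, CXCL, CCR, CXCR, XCL, XCR, CX3CL or CX3CR followed by digits, or one of the older names for the IL8 and CCRL genes. This gave 99 of 43653 probes, which carried 48 names on the array and stood for 51 genes by current RefSeq name. Each cow gave an early biopsy, taken between day 42 and day 86 after calving, and a late biopsy, taken between day 343 and day 436, so each period held 10 samples. All cows were female, no treatment is given in the labels, and the design text places every biopsy in the horn ipsilateral to the corpus luteum, on day 7 counted from oestrus. The late biopsy of a cow always followed the early one, so that age and sampling order moved with the period and cannot be told apart from it.

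Chemokines are small secreted proteins that direct the movement of leukocytes, and their receptors are G protein-coupled receptors carried mostly by the leukocytes themselves. The families are named for the spacing of the first cysteines of the ligand. In the uterus, chemokines draw neutrophils and monocytes to the lining after calving and help to keep lymphocytes and macrophages there during the cycle. A group of atypical receptors binds chemokines without signalling through G proteins and lowers their local concentration.

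A level here is the log2 signal of a probe relative to the 75th percentile of its array, so that 0 is a bright probe and -7 lies near background. Because probes differ in how well they bind, levels were compared between samples and not between probes. On each array between 71.8% and 80.2% of the spots exceeded background clearly by the scanner's own flag, here called above background, and none was saturated. The arrays came from 5 slides. Slides 1 and 2 held early samples, slides 4 and 5 late ones, and slide 3 held early samples of cows 9 and 10 with late samples of cows 1 and 2, so that slide and period largely coincided. The early sample of cow 9 stood apart in its makeup, with the highest stromal and the lowest epithelial marker level of the early samples, and the results that passed the test are also given without that cow. Without it 10 of the 68 tested member differences changed sign. As labelled, the tissue had its defining markers, since every probe of the 7 epithelial and 9 stromal genes on the array entered the tests. In whole tissue, fewer cells of a type and less RNA per cell cannot be told apart.

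The probes on which the results turn are shown first. Those of CCR1 and CXCL8 are given because these genes passed the test, and a pair from the CXCL2 group because their likeness bears on how that group can be read. All run 5′ to 3′, with positions on build HGSC Btau_3.1 as the files give them. CCR1 was probed at chr22:54589884-54589943 (+) and, nearer the 3′ end, at chr22:54591448-54591507 (+). CXCL8, still called IL8 on the array, was probed at chr6:91792569-91792628 (+), chr6:91793390-91793449 (+) and chr6:91793928-91793987 (+). The exon or UTR in which a probe lies was not assigned, as no annotation of that build was used here. One probe of each gene is printed whole and the first 30 of the 60 bases of the others.
CCR1 A_73_P102801: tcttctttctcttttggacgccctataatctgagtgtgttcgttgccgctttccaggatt
CCR1 A_73_110140: ttactcttctactattgttgtctttaagca
CXCL8 A_73_P107676: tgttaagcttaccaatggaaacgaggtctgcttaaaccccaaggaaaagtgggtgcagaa
CXCL8 A_73_P108356: aatcctgcttttttgttttcggtttttgta
CXCL8 A_73_118449: tcttgcccttattatgcaatgatgtgttgt

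Of the 5 probes named for CXCL2, CXCL3, CXCL5 and GRO1, which lie on the same chromosome as CXCL8, the closest pair was CXCL2 at chr6:91929433-91929492 (+) and CXCL3 at chr6:92062155-92062214 (+). Placed over each other without gaps they were identical at 45 of 55 bases, and their longest shared run was 12 bases, in capitals below within the 30 bases around it. The next closest pair was identical at 47.1% of the bases placed. Signal of CXCL2 and CXCL3 may therefore be shared to a degree that the arrays do not show.
CXCL2 A_73_114724: gtaaggcacAATGCCTTGTTTcatgttaat
CXCL3 A_73_108688: gtaaggcatAATGCCTTGTTTaatgtttac

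Detection came before any comparison. The tests took a probe if 8 or more of the 20 arrays had it above background, which held for 68 of the 99 and covered 41 of the 51 genes. Of the 99 probes 50 were above background on all 20 arrays and 13 on none. The 10 genes with no tested probe were the ligands CCL17, CCL20, CCL21, CCL22 and XCL2 and the receptors CCR2, CCR8, CCR9, CXCR1 and XCR1. CCR2, the receptor for CCL2 on monocytes, CCR8 and XCR1 were above background on 0 arrays with their single probes, as was CCR9, the gut-homing receptor for CCL25, with its 3 probes. CXCR1, a receptor of CXCL8 on neutrophils, was above background on 1 array with 1 of its 3 probes. For CCL20, the attractant of CCR6-bearing cells, the count reached 4 early and 2 late arrays with the best of 3 probes. CCL21 reached 2 early and 2 late arrays, and CCL22 reached 1 early array, while CCL17 and XCL2 reached 0. These genes account for 18 of the 31 untested probes, and the other 13 are further probes of genes tested with another probe. A value below background says only that these probes did not measure the gene in this tissue. At the edge of the filter, 1 probe (CXCL2 A_73_114724) was above background on exactly 8 arrays and 3 probes on 7.

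**Figure D1:**
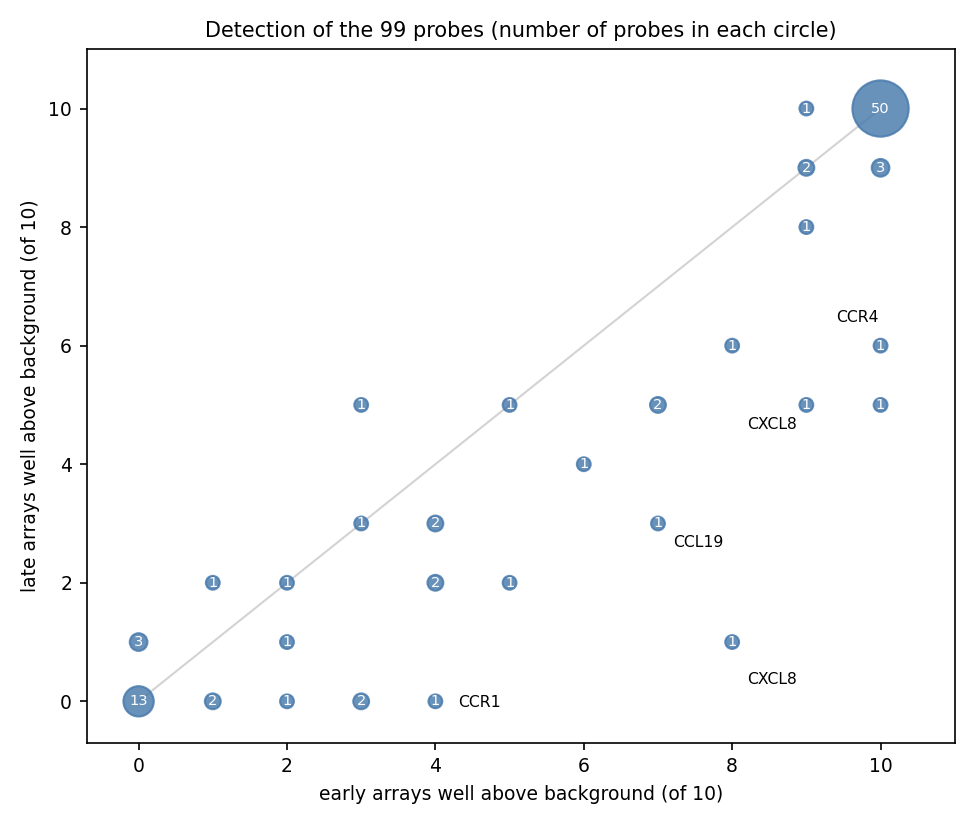
Number of early arrays (x axis) and late arrays (y axis), of 10 each, that had each of the 99 probes above background; circles give the number of probes at that point and the grey line marks equal counts. The largest circle holds the 50 probes above background on all arrays, 13 probes sit at 0 on both axes, and a CXCL8 probe at 8 early and 1 late arrays and a CCR1 probe at 4 and 0 lie below the line.

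The first question was which members differed between the periods in the same cows. The receptor CCR1 and the neutrophil attractant CXCL8 were lower in the late samples, and no other member passed the test. In the paired limma fit with Benjamini-Hochberg adjustment over all 33759 probes tested, 4 of 68 member probes were called, all lower late, of which 3 belong to CXCL8. Over all probes, 1.12% were called in either direction and 0.767% lower late, while the members' share was 5.88%. That share is a description, since CXCL8 A_73_P107676 and A_73_118449 would have met the filter by their early arrays alone (8 and 9 above background, beside 1 and 5 late). Of the 50 member probes above background on all 20 arrays, CCR1 A_73_110140 alone was called, where 1.07% of all such probes were. With 1 probe per gene, 2 of 41 member genes were called, where 1.31% of all genes were. The median late minus early difference of the 68 probes was -0.15 on the log2 scale, against -0.02 over all probes tested. Of the 68, 47 (69.1%) lay below 0, beside 52.6% of all probes. The median difference rested on a few cows: it was 0.01 without cows 4 and 9. At an unadjusted p under 0.05 there were 16 member probes, 13 lower and 3 higher, which is 23.5% beside 23.8% of all probes. With slide as a further block 30 of the 68 member differences changed sign, and on slide 3 alone 18 did. Since slide and period largely coincided, the fit with slide as a further block had much less precision than the paired fit. Slide 3 alone compared few samples of different cows. Sign changes in these fits, here and for single probes below, cannot be read as an effect of slide, which was not tested. No member probe had early and late levels without overlap, where 0.101% of all probes did.

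CCR1 is a receptor for CCL3, CCL5 and related ligands on monocytes, macrophages and neutrophils. Its tested probe, A_73_110140, ran from -2.07 through a median of -0.99 to 0.33 in the early samples. In the late samples it ran from -2.99 through a median of -2.52 to -1.14. The level was lower late in 10 of 10 cows, as for 2.25% of all probes, most in cow 4 (by -2.45) and least in cow 3 (by -0.50), although the late samples of cows 3, 8 and 9 lay within the early range. The mean fell from -0.96 ± 0.71 to -2.36 ± 0.60 (SD, n = 10), a difference of -1.40 ± 0.20 (SE; limma adjusted p = 0.0155) or 2.64-fold (95% interval 1.94 to 3.60). The call held when any 1 cow was left out (limma adjusted p from 0.0182 to 0.0486) and without cows 4 and 9, where the difference was -1.16 (limma adjusted p = 0.0232). With slide as a further block the difference was -1.95 and no longer called (limma adjusted p = 1), and on slide 3 alone it was -2.49, or -1.68 without the early sample of cow 9.

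The other CCR1 probe, A_73_P102801, exceeded background in 4 early and 0 late samples and was not tested. Its measured levels were -6.93 ± 0.75 early and -8.24 ± 0.56 late, lower late in 10 of 10 cows. Since the late values lie at background, no fold is given.

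CXCL8 is the chief attractant of neutrophils in cattle as in humans, and acts through CXCR1 and CXCR2. Its 3 probes were dim. A_73_118449 ran from -6.98 through -4.79 to -2.88 early and from -9.04 through -7.11 to -6.03 late, lower in 10 of 10 cows. It was above background on 9 early and 5 late arrays. A_73_P107676 ran from -7.68 through -5.83 to -4.0 early and from -9.02 through -8.10 to -6.79 late, lower in 9 of 10 cows, with 8 early and 1 late arrays above background. A_73_P108356, above background on 10 early and 9 late arrays, ran from -5.89 through -4.85 to -3.57 early and from -6.79 through -5.87 to -5.46 late, lower in 10 of 10 cows. For each probe the highest early level was that of cow 9, the early levels of cows 1 and 5 fell within the late range, and cow 5 showed almost no difference (-0.05, 0.07 and -0.24 for the probes in the order given).

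The mean differences of CXCL8 were -2.57 ± 0.46 (SE; limma adjusted p = 0.0356), -2.29 ± 0.40 (limma adjusted p = 0.0356) and -1.15 ± 0.23 (limma adjusted p = 0.0435). The probe that stayed above background on 19 of 20 arrays gave a 2.22-fold lower level (95% interval 1.57 to 3.12), and the folds of the dimmer probes, 5.93 and 4.90, rest on late values at background. Without cow 9 the differences were -2.40, -2.09 and -0.98 and all 3 calls were lost (limma adjusted p from 0.0504 to 0.0536), while without cows 4 and 9 the first 2 were called (limma adjusted p = 0.0474 and 0.0481). Of the 10 fits that leave out 1 cow the calls held in 2, 2 and 1. Under normexp background correction the differences were -0.84, -0.54 and -0.47, with the first still called (limma adjusted p = 0.0494). With slide as a random block they were -2.59, -2.31 and -1.16 and missed the threshold (limma adjusted p from 0.0685 to 0.0776). With slide as a further block they were -1.26, -1.01 and -0.79, not called (limma adjusted p = 0.9999), where 0 of 33759 probes were. On slide 3 alone, unpaired and between different cows, they were -4.96, -3.49 and -2.17.

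**Figure D2:**
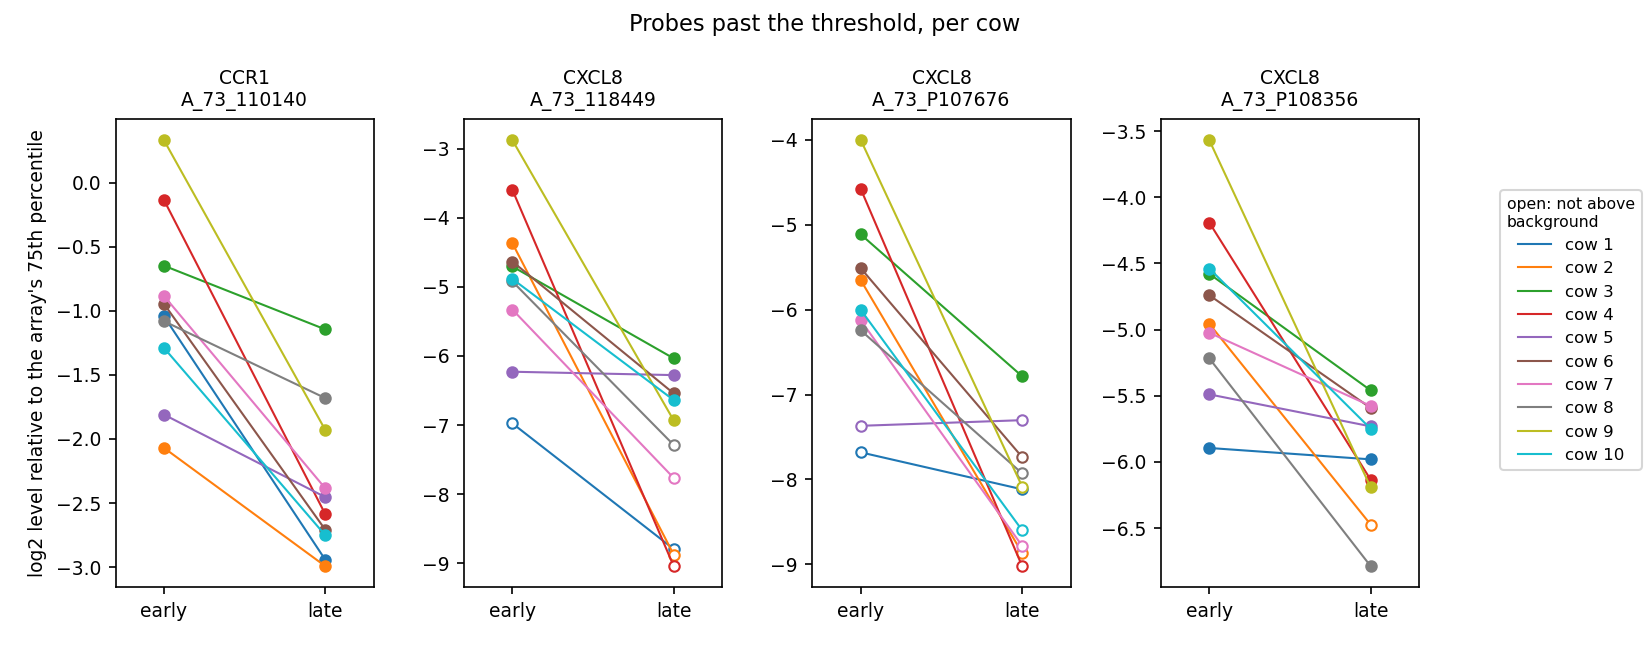
Log2 level relative to the array's 75th percentile (y axis) in the early and late sample of each of 10 cows for the 4 probes past the threshold; lines join samples of a cow and open circles are not well above background. CCR1 fell in every cow, and 5 late values of CXCL8 A_73_118449 and 9 of A_73_P107676 are open.

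Some markers of macrophages, which carry CCR1, were also lower late. In the macrophage and monocyte list 8 of 29 tested probes, from 4 of 15 genes, were called lower late and 28 of 29 lay below 0 (median -0.75). The called genes were CD68 (A_73_106271, -1.79 ± 0.22 SE), VSIG4 (A_73_101179, -1.47 ± 0.16), MSR1 (A_73_102799, -1.40 ± 0.18) and TYROBP (A_73_P030636, -1.17 ± 0.17). The summed linear level of the list ran from 21.4 to 78.9 early (median 42.0) and from 18.2 to 71.3 late (median 23.4), and none of its genes stayed below background throughout. In the T and NK cell list NKG7 alone was called lower (-1.20 ± 0.19 SE), while 30 of 34 tested probes lay below 0 (median -0.25). The mean level of that list was lower late in 8 of 10 cows. The summed level of the list ran from 10.4 to 16.3 early and from 10.0 to 15.7 late. The part of these cells in the CCR1 result was not tested.

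In the neutrophil list, which holds CXCR2 itself, 0 of 15 tested probes were called, 6 lay below 0 and 9 above (median 0.17). Its summed level ran from 8.55 to 103 early (median 20.1) and from 16.3 to 144 late (median 57.5), much of it from lactoferrin (LTF), which uterine epithelium also makes. Among the calgranulins, S100A8 differed by 0.30 and S100A12 by -0.20 to -0.16. Of the granule enzymes, MPO exceeded background in 4 early and 7 late samples and ELANE in all 20 with A_73_P319741. The part of neutrophils in the CXCL8 result was not tested. Of the stromal markers, HAND2 was called lower (-0.87 ± 0.18 SE), and all 45 tested probes lay below 0 (median -0.33). In the endothelial list 12 of 15 lay below 0 (median -0.29). Their part in the members' differences was not tested. The epithelial, endothelial, B cell, mast cell and red blood cell lists held 0 called probes.

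The mean differences of the other neutrophil ligands lay near 0. GRO1, CXCL3, CXCL5 and CXCL2 attract neutrophils through CXCR2. CXCL3 differed by -0.02 ± 0.36 (SE), GRO1 by -0.05 ± 0.31 and CXCL5 by 0.04 ± 0.42, with 95% intervals that reach at least to 0.62 above and -0.73 below. In single cows they moved far: CXCL3 ranged from -2.03 in cow 4 to 2.06 in cow 5, and GRO1 from -1.92 to 1.94 in the same cows. CXCL2 A_73_114724 exceeded background in 3 early and 5 late samples and differed by 0.22 ± 0.57. Its other probe, A_73_P031501, maps across 905 bases of the genome and was not tested. CXCR2, the receptor for all of them, differed by 0.12 ± 0.14 and was near background (7 early and 5 late arrays).

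Ligands of the inflammatory CC receptors were measured well. CCL3 and CCL4, made by activated macrophages and T cells, differed by -0.06 and -0.03 (CCL3 A_73_119009 and A_73_P102451) and by -0.20 and -0.09 (CCL4 A_73_106624 and A_73_P102796). The 3 probes of CCL5, a product of T and NK cells, gave -0.16, -0.29 and -0.28, the last with the smallest adjusted p of the gene (limma adjusted p = 0.281). For CCL14 and CCL16, which also bind CCR1, the differences were 0.09 and, from its 2 probes, -0.16 and 0.01. CCL2, the main monocyte attractant, differed by -0.71 ± 0.48 and -0.31 ± 0.48, and CCL8 by -0.53 ± 0.52 and -0.45 ± 0.50. These last genes differed in opposite directions between cows: CCL8 A_73_116397 was lower late by -3.70 in cow 1 and -3.45 in cow 4 and higher by 2.50 in cow 3.

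Ligands that draw eosinophils through CCR3 showed no common direction. CCL11 differed by -0.27 ± 0.24, CCL26 by -0.38 ± 0.23 and CCL24 by 0.41 ± 0.20 (limma adjusted p = 0.231). CCR3 A_73_103766 itself differed by -0.73 ± 0.29 (limma adjusted p = 0.157). It was lower late in 7 of 10 cows, with early levels from -5.27 to -2.48 and late levels from -5.35 to -4.29. With slide as a further block the difference turned to 0.46.

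Receptors of T cells came next to the threshold. CXCR6, which binds CXCL16 and marks tissue-resident T and NK cells, ran from -1.39 through -0.58 to 0.03 early and from -2.10 through -1.30 to -0.91 late. The groups overlapped, and the level was lower late in 9 of 10 cows, cow 7 being the exception. The difference was -0.71 ± 0.16 (SE; limma adjusted p = 0.0599). It was called only with cow as a random effect (limma adjusted p = 0.0210), where 4.54% of all probes were called beside 1.12% in the paired fit.

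CCR4, the receptor for CCL17 and CCL22 on helper T cells, was dim with every probe. A_73_P032236 ran from -6.72 through -5.70 to -4.54 early and from -7.51 through -6.42 to -5.41 late (10 early and 6 late arrays above background). It was lower late in 8 of 10 cows, by -0.71 ± 0.18 (SE; limma adjusted p = 0.0693). The difference was -0.21 under normexp and -1.95 with slide as a further block. A_73_110464 differed by 0.04 ± 0.15, but it was above background on only 6 early and 4 late arrays. Its mean levels of -6.85 early and -6.81 late lay near background, so they say little of a difference. A_73_P102776 was above background on a single late array, that of cow 7.

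CXCR4, the receptor of CXCL12 on most leukocytes, was above background on all 20 arrays. Its probes differed by -0.33 ± 0.10 (SE; limma adjusted p = 0.107) and -0.30 ± 0.12 (limma adjusted p = 0.154), each lower in 8 of 10 cows, with single cows between -0.65 and 0.43. CXCR5, the B cell receptor for CXCL13, differed by -0.71 ± 0.23 (limma adjusted p = 0.112). CXCR3, which binds CXCL9, CXCL10 and CXCL11 on T and NK cells, differed by -0.17 ± 0.17 and was near background (8 early and 6 late arrays).

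CCR7, which brings dendritic cells and naive T cells to lymph nodes, differed by -0.51 ± 0.26 and -0.52 ± 0.26 with 2 probes that share 40 of their 60 bases and so are not independent. Across the CC and CXC receptors by array name, ACKR3 below among them, 13 of 15 tested probes lay below 0, beside 52.6% of all probes. Class medians were -0.54 for CC and -0.39 for CXC receptors against -0.02 over all probes. Below 0 were also 28 of 29 macrophage and monocyte, 30 of 34 T and NK cell and 6 of 15 neutrophil probes. The same held for 45 of 45 stromal, 12 of 15 endothelial, 11 of 14 mast cell and 10 of 13 B and plasma cell probes. Of the epithelial probes 6 of 20 lay below 0, and of the red blood cell probes 1 of 5. The part of any of these cells in the receptor differences was not tested. The receptor probes share samples and, in part, genes.

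The ligands of those receptors were measured as follows. CXCL16, a membrane-bound ligand and scavenger receptor, differed by -0.20 ± 0.25, 0.02 ± 0.41 and -0.35 ± 0.26 with its 3 probes. In this series the interferon-induced CXCL9, CXCL10 and CXCL11 differed by -0.15 ± 0.47, by 0.09 to 0.12 and by 0.32 ± 0.34. All 3 were lower late in cow 1 (CXCL10 A_73_114710 by -1.94) and higher in cow 3 (by 1.57 with the same probe). CXCL13, the B cell attractant, was above background on only 7 early and 5 late arrays. It differed by 0.06 ± 0.43, from -2.03 in cow 1 to 3.55 in cow 3.

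CCL19, the CCR7 ligand of lymphoid tissue, had the widest spread of any ligand. A_73_106166 ran from -6.87 through -5.35 to -0.52 early and from -8.60 through -7.59 to 0.83 late, so that the late range enclosed the early one. It was above background on 7 early and 3 late arrays, so the difference rests largely on late values at background. The measured difference was -1.90 ± 1.02 (SE; limma adjusted p = 0.279), or -0.48 under normexp, lower in 8 of 10 cows and higher by 4.02 in cow 3, and without cow 4 the difference was -1.21. Its second probe was above background on 7 arrays and was not tested. XCL1, the attractant of cross-presenting dendritic cells, differed by 0.03 ± 0.11, with single cows between -0.60 and 0.44.

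CXCL12, the stromal ligand of CXCR4 and ACKR3, was read by 7 probes whose differences lay between -0.30 and 0.11, none called. They rest on fewer independent measurements than their number, since A_73_118342 and A_73_P437986 share 45 bases. CXCL14, an epithelial and stromal chemokine, differed by -0.49 ± 0.35 (limma adjusted p = 0.415). Early levels ran from -1.34 to 2.29, the highest being cow 9, and late levels from -1.47 to 0.25. Without cow 9 the difference was -0.20, without cows 4 and 9 it was 0.02, and with slide as a further block it turned to 0.80.

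No chemokine passed the test in the direction of higher late levels. CCL28, an epithelial chemokine that draws plasma cells to mucosal surfaces through CCR10, ran with A_73_P043236 from -5.98 through -3.38 to -2.36 early and from -3.93 through -2.51 to -1.29 late. The groups overlapped widely, 7 of 10 cows were higher late, and cow 10 alone differed by 4.69, without which the mean difference was 0.77. Its probes differed by 1.16 ± 0.49 (SE; limma adjusted p = 0.182) and 1.09 ± 0.46 (limma adjusted p = 0.184).

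CCL25, the ligand of CCR9, differed by 0.72 ± 0.30 with A_73_P036436 (limma adjusted p = 0.180) and by 0.09 ± 0.08 with its bright probe A_73_P270486. The first turned to -0.36 on slide 3 alone, and the second to -0.24 with slide as a further block. CXCL17, made by mucosal epithelia, ran from -7.04 through -5.35 to -1.21 early and from -5.26 through -4.34 to 0.44 late. It was higher late in 8 of 10 cows, and its mean difference of 1.27 ± 0.77 (limma adjusted p = 0.331) drew on cow 6, which differed by 7.48 and without which it was 0.58. The epithelial marker list differed by a median of 0.11 over 20 probes.

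The remaining receptors are atypical or of other families. ACKR3, a scavenger of CXCL12 that the array calls CXCR7, differed by -0.45 ± 0.20 and -0.48 ± 0.19 (limma adjusted p = 0.188 and 0.159), lower in 8 of 10 cows. With slide as a further block the second value turned to 0.87. ACKR4, a scavenger of CCL19, CCL21 and CCL25, exceeded background in 5 early and 5 late samples and differed by 0.29 ± 0.22. CCRL2, which presents chemerin, differed by -0.07 ± 0.14 and -0.11 ± 0.14, and CX3CR1, the receptor of patrolling monocytes, by -0.05 ± 0.15 and -0.10 ± 0.17. Both were above background on all arrays, and with the first probe of each the 95% intervals ran from -0.37 to 0.23 for CCRL2 and from -0.39 to 0.28 for CX3CR1.

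**Figure D3:**
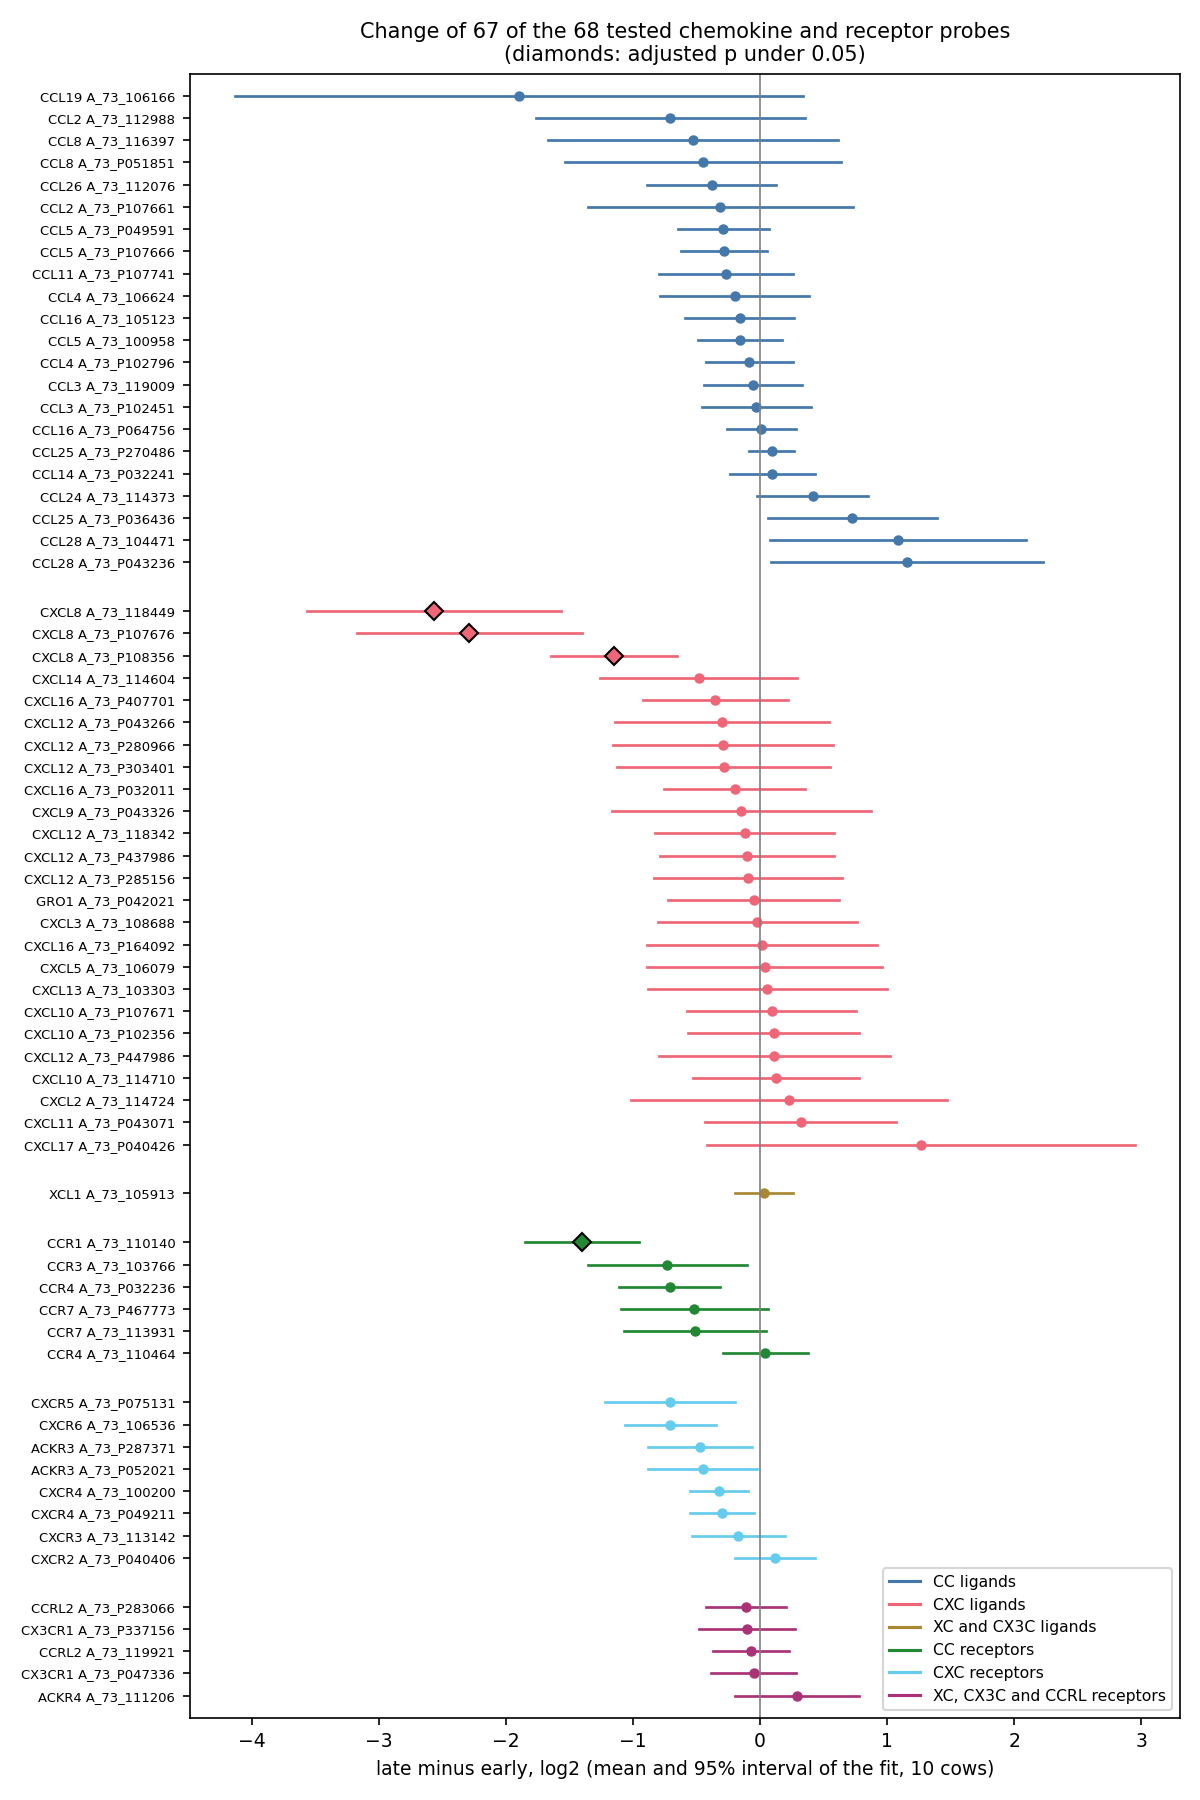
Late minus early difference on the log2 scale (x axis) for 67 of the 68 tested probes, with the mean over 10 cows and the 95% interval of the fit, grouped and coloured by class; black-edged diamonds passed the threshold. The 4 diamonds are CCR1 and 3 CXCL8 probes at -1.15 to -2.57, and most receptor probes lie left of 0.

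The next question was how far cows differed from each other. In cow 4 member probes were lower late in 79.4% of cases, and in cows 1 and 10 in 75%, where the share of all probes was 50.1%, 48.5% and 50.9%. Cow 5 went the other way, with 32.4% of members lower beside 46.3% of all probes. The median member difference ran from -0.71 in cow 4 to 0.28 in cow 5. Cow 5 had the latest of the early biopsies, at day 86. Cow 3 was evenly split, with 34 probes lower and 34 higher, and 17 of these were higher by more than 1 log2 unit, CCL2, CCL8, CCL19, CXCL9, CXCL11 and CXCL13 among them. Its late sample ranked highest of the 10 late samples for the mean level of the macrophage, neutrophil, T and NK, B and plasma, and mast cell lists. Its early sample ranked 1 of 10 for the T and NK, B and plasma, and mast cell lists, 2 for neutrophils and 3 for macrophages, and the mean of the macrophage list was 0.27 early and 0.25 late. The part of those cells was not tested.

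**Figure D4:**
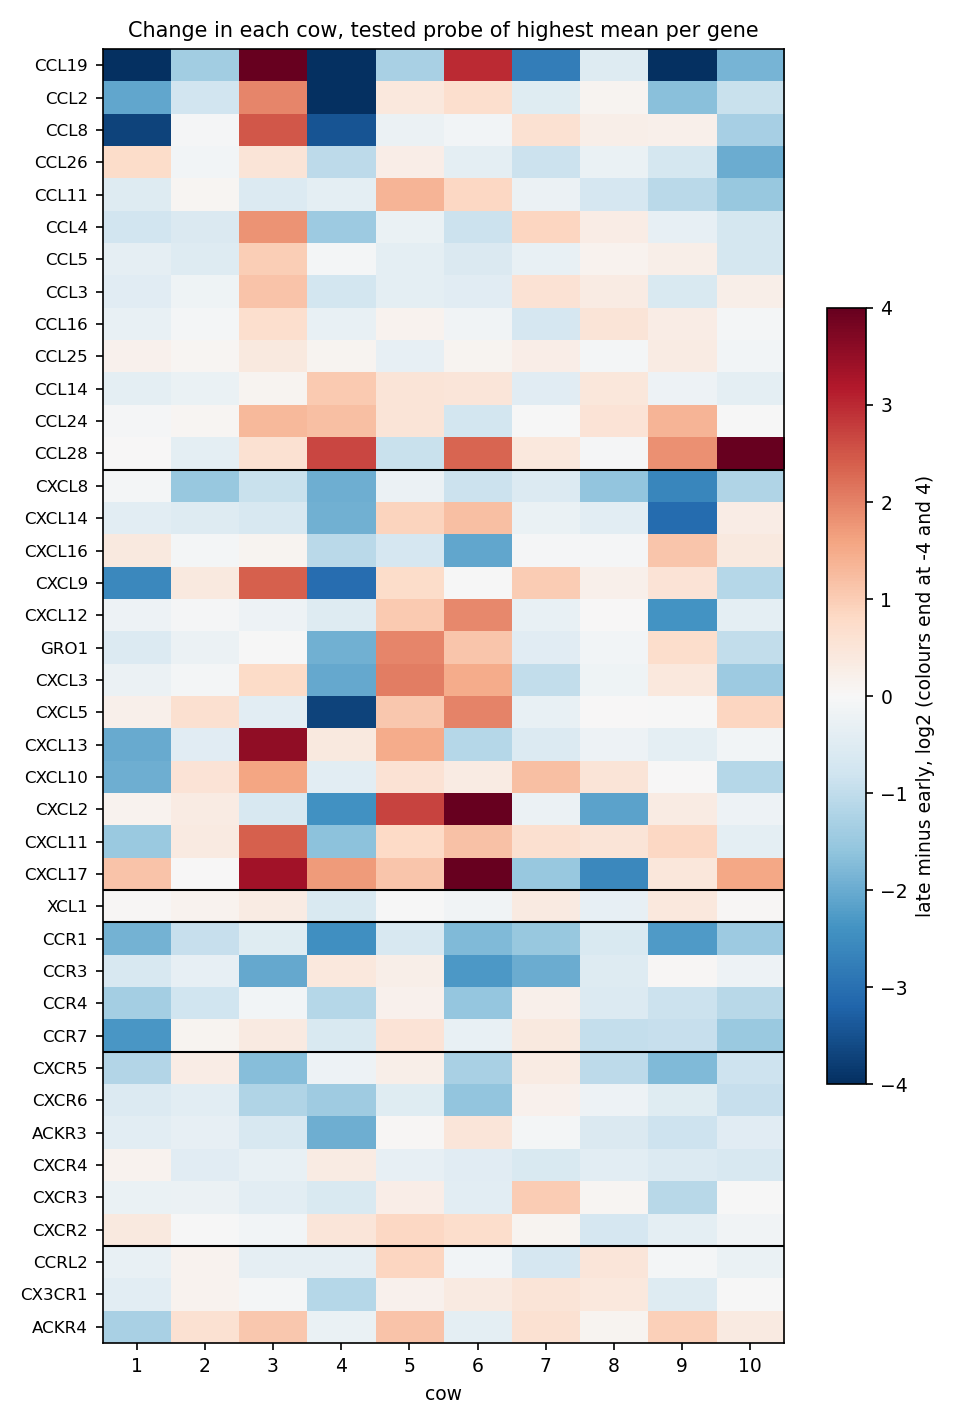
Late minus early log2 difference for 40 of the 41 tested member genes (rows, the tested probe of highest mean) in each of 10 cows (columns), with colours ending at -4 and 4 and lines between the classes. CCR1 and CXCL8 are blue in nearly every cow, while CCL2, CCL8 and CXCL9 are red in cow 3 and blue in cows 1 and 4.

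Within the early period the day of the biopsy varied by weeks, which allowed a slope of level on day. No member probe passed the threshold in either period, nor did any other probe on the array (0% of all probes called). At an unadjusted p under 0.05 there were 20 of 68 member probes early, or 29.4% beside 5.29% of all probes, 17 of them with levels lower at later days. The median early slope was -0.23 log2 per 10 days over the members and -0.01 over all probes, and 58 of 68 slopes were negative. The smallest p belonged to CCR4 (A_73_P032236, -0.41 ± 0.11 SE per 10 days, unadjusted p = 0.00285), CXCR6 (-0.25 ± 0.08, unadjusted p = 0.00976) and CCR1 (-0.37 ± 0.12, unadjusted p = 0.0127), each with a limma adjusted p of 0.908.

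The early count rested on cow 5. Without it 3 of 68 member probes had an unadjusted p under 0.05, and without cow 6, sampled on day 42, 33 of 68 did. Over the 10 fits that leave out 1 cow, between 4.17% and 8.47% of all probes had an unadjusted p under 0.05. The median slope of the members stayed negative in all 10 such fits, from -0.36 to -0.17. Some leukocyte markers also had lower early levels at later days: 23 of 29 macrophage and monocyte probes and 12 of 34 T and NK cell probes had an unadjusted p under 0.05, with median slopes of -0.35 and -0.16 per 10 days. The count was 5 of 15 for neutrophils (median slope -0.12), 0 of 13 for B and plasma cells and 0 of 14 for mast cells, and 0 probes of these lists were called. Their part in the member slopes was not tested. In the late period 1 of 68 member probes had an unadjusted p under 0.05, or 1.47% beside 1.15% of all probes. CXCR2 had the smallest p (0.09 ± 0.04 per 10 days, unadjusted p = 0.0489), and CXCL2 gave 0.31 ± 0.18 (unadjusted p = 0.120). Whether slopes differed between the periods was not tested.

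**Figure D5:**
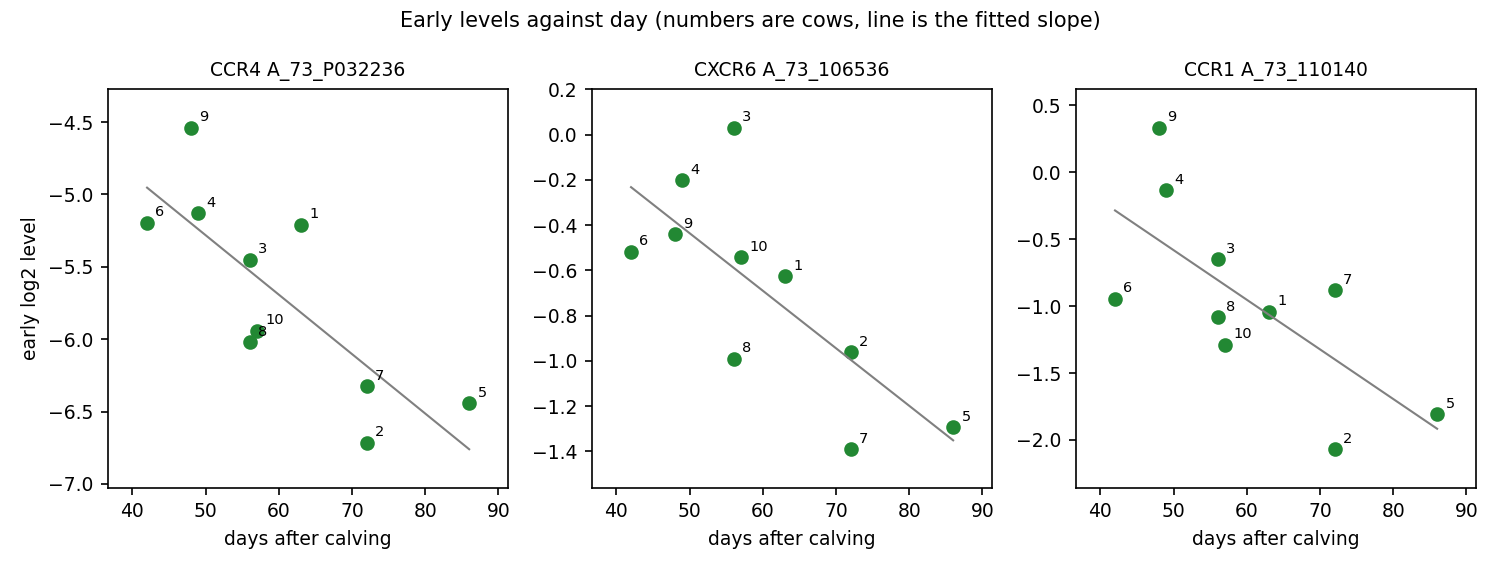
Early log2 level (y axis) against days after calving (x axis) for CCR4, CXCR6 and CCR1 in 10 cows, numbered, with the fitted slope as a grey line. Cows 4, 6 and 9, sampled between days 42 and 49, lie above cows 2 and 5, sampled on days 72 and 86.

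Known ligand and receptor pairs were then compared cow by cow. Of 34 pairs listed, 21 had both genes tested, and the correlation of their late minus early differences over 10 cows was tested by permutation with 100000 resamples, two-sided and adjusted over the 21. By Pearson's r 0 pairs were called, with 3 at an unadjusted p under 0.05. Among these were CCL3 and CCR1 (r = 0.66, permutation p = 0.0382, adjusted 0.289) and CCL8 and CCR1 (r = 0.64, permutation p = 0.0454, adjusted 0.289). By Spearman's rho 1 pair was called, while CCL3 and CCR1 were not (rho = 0.82, permutation p = 0.00555, adjusted 0.0583), nor were CCL8 and CCR1 (rho = 0.55, permutation p = 0.106, adjusted 0.372).

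Without the 2 cows farthest from the median ligand difference, r was 0.69 for CCL3 and CCR1 and 0.37 for CCL8 and CCR1, the last of which thus rested on those cows. The median r of the 21 pairs was 0.27, and that of all 820 pairs of member genes was 0.18. CXCL8 and CXCR2 had r = 0.55 (permutation p = 0.101, adjusted 0.303), and CXCL12 and CXCR4 had r = 0.01 (permutation p = 0.974, adjusted 0.974). Within-slide values could not be had, since only slide 3 held both periods and no cow had both samples on it.

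Genes around the family were read as lists. Of other chemokine system genes outside the name rule, such as CD74, MIF, PF4 and the scavengers ACKR1 and ACKR2, 0 of 14 tested probes passed the threshold and 8 lay below 0 (median -0.14). Of genes that carry the receptor signal, from the G protein subunits through PI3-kinase gamma to Rac, 0 of 64 passed, 49 lay below 0, and the median was -0.13. Of inducers of chemokine transcription, such as TNF, the NF-kappa B subunits and Toll-like receptors, 0 of 47 passed, 39 lay below 0, and the median was -0.25. The same counts over all probes were 1.12% called and 52.6% below 0, with a median of -0.02.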

How the data were processed

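Total RNA of 20 endometrial biopsies was labelled with Cy3, per the labels' protocols, and read by the authors with Agilent Feature Extraction 10.5.1.1, per the submitters' processing notes. The deposited intensity values are background-subtracted processed signals, beside mean and background signals. The deposited value table holds log2 values, which matched log2 processed signals minus the 75th percentile, centred per probe, and served as an alternative. Signals were scaled in that way here, without the centring. Spots of controls and those marked as outliers were dropped, and repeat spots averaged per probe. The ARS-UCD2.0 RefSeq table was used for names only.

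Late and early were compared in limma 3.58.1 (R 4.3.3; two-sided, Benjamini-Hochberg over 33759 probes, threshold 0.05) with cow as a fixed block. Titles and animal numbers pair the samples; source names of late samples carry other cow numbers. A cow's deviations correlated between -0.11 and 0.77 (median 0.41), above 0.1 in 8 of 10 cows. In simulated data, 78% of changes of 1 log2 unit and 22% of changes of 0.5 were recovered. The changed probes were drawn from the whole array, with independent normal noise and no slide effect. These shares may not hold for members of wide spread, such as CCL19 (SE 1.02), or for probes near background. Members and lists were chosen with earlier results of these data known. Named were all called genes, in each class the 4 of smallest p and the largest differences, in other lists called members, and the 3 smallest p of day trends and pairs. The number of arrays limits precision. Of the member genes 1, with its probe, and of the other list genes 1 enter the counts and medians but are not reported here by name or in the plots of single genes.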

Additional observations from a re-analysis of the deposited data

Results flagged for a closer look

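In each period's 10 samples, the highest and lowest level of every tested member probe was set against the others with Dixon's ratio. Of 136 probe and period combinations 21, or 15.4%, had a sample far from the rest, where chance flags about 1 in 20 and probes of 1 gene are not independent. The late sample of cow 3 stood highest for CCL2 (0.066 with A_73_112988 and -2.30 with A_73_P107661), CCL24 (-0.63), CCL3 (-3.09 with A_73_119009), CCL4 (-0.81 with A_73_106624 and -2.56 with A_73_P102796), CCL8 (1.82 with A_73_116397 and 0.061 with A_73_P051851), CXCL13 (-1.27) and CXCR5 (-3.53). The early sample of the same cow was highest for CXCR5 (-1.83). For CXCL12 the late sample of cow 6 was highest with 5 probes (2.20 with A_73_118342, 0.50 with A_73_P043266, 1.5 with A_73_P285156, 0.44 with A_73_P303401 and 2.66 with A_73_P437986) and the late sample of cow 8 with A_73_P447986 (-3.23). The early sample of cow 9 was highest for CXCL12 (3.04 with A_73_P437986) and CXCL14 (2.29), that of cow 6 for CXCL16 (1.62 with A_73_P407701) and that of cow 4 for CXCL5 (-0.90). No CCR1 or CXCL8 probe was among them.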

How the results depend on the processing

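The count of called member probes, 4 as reported, was 4 with no replicate block (cows unpaired), where 0.575% of all probes were called. With cow as a random effect it was 5, where 4.54% of all probes were called. It was 4 under quantile normalization (2.04% of all probes), median scaling (1.44%), the deposited table (1.1%) and a trended and robust variance (1.21%). It was 3 with no filter (0.305%) or without cows 4 and 9 (0.933%). The count was 2 under normexp (1.14%) and in both fits with 1 value per gene (1.31% and 1.18% of all genes). It was 1 with the filter on all 20 arrays (1.07%) and with slide as a random block (0.19%). It was 0 with slide as a further block and within slide 3, where 0% of all probes were called. For a minimum change of 1.5-fold it was 0, beside 0.0148% of all probes. Leaving out each cow gave 1 to 4 calls, with CCR1 called each time, while 0.198% to 1.38% of all probes were called. The median difference of the members was -0.67 on slide 3 alone and lay between -0.23 and -0.05 when each cow was left out. Day trends had 0 called members under every alternative run. For pairs, 1 was called by Spearman's rho in place of Pearson's r, an alternative chosen after seeing the data, and 0 to 2 when each cow was left out. The causes were not tested. Probes near background limit what can be said of CXCL8 and CCR4.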
